A study of Mus musculus with 2 samples.

Results

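The T cells described here were 456 droplet barcodes of 1 single-cell RNA sequencing library, out of 4830 barcodes in that library and 14421 in the series. They were chosen by 3 counts of unique molecular identifiers (UMIs, each marking 1 captured transcript). A barcode was kept with at least 2 UMIs of Cd3d, Cd3e and Cd3g together, at most 1 UMI of the B cell genes Cd79a and Cd79b, and at most 2 UMIs of the macrophage genes C1qa, C1qb and C1qc. Before groups were assigned 475 barcodes met these limits, and 19 of them had no clear group and were dropped. The values of these genes chose the cells, so they are given only as a description.

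T cells recognise peptide antigen through the T cell receptor, whose CD3 chains and Lck and Zap70 kinases start the signal. In the liver many CD8 T cells are held in the tissue, marked by the chemokine receptor Cxcr6, and repeated antigen contact raises receptors such as PD-1 (Pdcd1) and Lag3, while killing runs through perforin and granzymes. CBL0137 is a curaxin, a small molecule that binds DNA without breaking it and traps the histone chaperone FACT on chromatin. Curaxins are known for raised p53 activity, lowered NF-kB activity and, where Z-form nucleic acid appears, sensing by ZBP1.

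The cells came from female BALB/cAnNCrl mice of 7 to 8 weeks that carried liver metastases of the 4T1 mouse mammary carcinoma line, seeded through the spleen, part of which was removed in the same operation. Each group was 2 mice pooled, killed 5 days after hepatic arterial infusion, in which a substance is delivered into the artery of the liver. The 3 groups received vehicle (dextrose solution), a low dose of CBL0137 or a high dose of CBL0137. The amounts behind "low" and "high" for these libraries are stated in none of the sources used. The labels describe leukocytes from digested tissue purified on a density gradient, and the figure legends of the study likewise speak of liver leukocytes, whereas its methods describe cells pulled down on beads through CD11b, a myeloid surface protein that most T cells lack. Whether these libraries were selected through CD11b is not settled by the sources used here. Since every group was 1 pool run once, no test between groups was possible. The 95% intervals below take in the error of counting alone and leave out how mice, cells and droplet runs differ. Low and high dose were each set against the same vehicle cells.

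The groups rest on 3 antibody-borne DNA tags, shown because they alone tie a cell to its treatment. They are written in lower case, with no base marked.
A0301 (vehicle): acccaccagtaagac
A0305 (low dose): ctttgtctttgtgag
A0310 (high dose): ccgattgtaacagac
A cell took the group of its most abundant tag when that tag had at least 10 UMIs and at least 3 times those of the next. The T cells carried a median of 2493 UMIs of their own tag in the vehicle group, 1926 at the low dose and 1074 at the high dose, against 34, 32 and 13 of the next tag. With a limit of 30 UMIs and 5 times the next tag, 61 of 64, 137 of 138 and 251 of 254 cells kept their group.

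The vehicle group held 64 T cells, the low dose 138 and the high dose 254. Their summed UMIs were 669785, 1119760 and 1913450. A cell had a median of 7564 UMIs in the vehicle group (range 1700 to 59722), 5156 at the low dose (635 to 28741) and 4510 at the high dose (507 to 42960). The vehicle group was thus the smallest sample and the one whose levels are least precise.

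The labels call this library spleen, although its name says liver, and the sister library carries the reverse. The RNA of the whole library held liver genes. Albumin (Alb) had 1157 UMIs here against 0 in the sister library, and Clec4f, a marker of liver-resident Kupffer macrophages, had 4602 against 0. The sinusoidal endothelial gene Clec4g had 4380 UMIs against 6, and Stab2 had 1427 against 25. These values go with the name and against the label, and the cells are called liver-file T cells below. The libraries shared 15 barcode sequences, of which 1 belonged to a T cell described here.

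The T cell barcodes fell into 2 kinds. In 94 of the 456, over 2% of UMIs came from a list of 16 neutrophil genes, and the median share was 44.6%. These 94 had a median of 15164 UMIs in all and a median of 2 Cd3 UMIs, against 4175 and 13 in the other 362. Only 3 barcodes lay between 2% and 8% and 5 between 0.5% and 2%, while 357 were under 0.5%. None had over 2% of UMIs from hepatocyte genes. The 94 made up 37.5% of the vehicle T cells (24 of 64), 32.6% at the low dose (45 of 138) and 9.84% at the high dose (25 of 254). In the same order S100a8 and S100a9, the most abundant neutrophil transcripts, took 20.1%, 18.2% and 8.27% of all T cell UMIs.

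The neutrophil-rich barcodes lay at the edge of the rule. Of 69 barcodes with exactly 2 Cd3 UMIs, 79.7% were of this kind, against 59.0% of 39 with 3 and 4.60% of 348 with more than 3. Just outside the rule, 81.6% of 185 barcodes with 1 Cd3 UMI were neutrophil-rich. The Cd3 UMIs of the 94 were mostly Cd3d, with 238 UMIs in all 94 barcodes. Cd3e had 18 UMIs in 10 of them and Cd3g 35 in 6. In the other 362, Cd3d had a UMI in 321 barcodes, Cd3e in 322 and Cd3g in 345. On the other 2 limits 11 members had a Cd79 UMI and 60 had 1 or 2 C1q UMIs, and 1 and 4 barcodes stood just outside. No doublet caller was run, and whether these droplets held 2 cells was not tested.

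**Figure D1:**
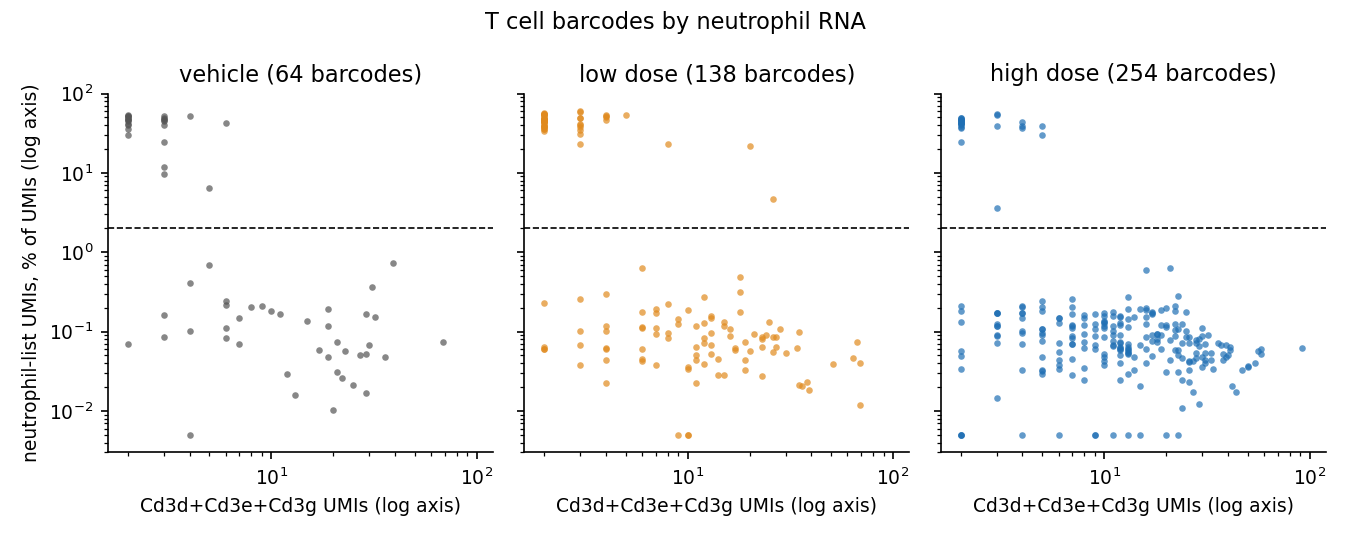
Percent of UMIs from the neutrophil list (log axis) against UMIs of the 3 Cd3 genes (log axis) for each T cell barcode, 1 panel per group, with values of 0 drawn near the foot of the axis and a dashed line at 2%. The 94 barcodes above the line form a separate cloud, mostly at 2 or 3 Cd3 UMIs, and the other 362 lie at or under 0.73%.

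T cell genes that the rule did not use separated the 2 kinds. In the 362 other barcodes the receptor beta constant gene Trbc2 reached 1673 UMIs per 1000000 UMIs of those cells (CPM), with a UMI in 332 of them, and the alpha constant gene Trac reached 550 CPM in 273. The kinase Lck was at 417 CPM and the adaptor Lat at 334 CPM. In the 94, Trac was at 7.99 CPM with a UMI in 5 barcodes and Trbc2 at 21.3 CPM in 6. Trac was at 11.7 CPM in the 4027 assigned barcodes of the library outside the rule. The 362 thus carried T cell receptor RNA and the 94 almost none, so the label T cell goes against the data for the 94. The 362 were 40 vehicle, 93 low-dose and 229 high-dose cells with 228578, 538215 and 1434461 UMIs, and their median depth was alike (4188, 4153 and 4178 UMIs). The limit of 2% was chosen after the data were seen, and results are given for all 456 barcodes and for the 362.

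T cells made up 7.81% of assigned vehicle barcodes (64 of 820, 6.06 to 9.86), 10.5% at the low dose (138 of 1318) and 10.8% at the high dose (254 of 2345). The difference from vehicle was 2.67 percentage points at the low dose and 3.03 at the high dose. The separate intervals of low dose (8.87 to 12.3) and high dose (9.60 to 12.2) overlapped that of vehicle, which does not settle whether counting error covers the differences. With at least 3 Cd3 UMIs the shares were 6.22% (4.67 to 8.10), 8.12% and 9.77% (8.59 to 11.0). Thinning each barcode to 1000 UMIs gave 4.18% (2.88 to 5.85), 5.93% and 8.83% (7.63 to 10.2). In both settings the intervals of vehicle and high dose were apart. Requiring 200 genes a barcode and mitochondrial UMIs below 10% gave shares of 9.10%, 11.5% and 18.1%, and the intervals of vehicle and high dose were then apart. The median mitochondrial share of the assigned barcodes outside the rule was 4.30%, 4.05% and 9.96%. Counting only the 362 cells, the shares were 4.88% (3.51 to 6.58), 7.06% (5.73 to 8.58) and 9.76% (8.59 to 11.0), and the intervals of vehicle and high dose no longer overlapped. A share depends on the number of every other cell type in the pool. In the sister library, where the same rule gave 3024 barcodes, the shares were 23.5%, 33.0% and 51.8%.

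Without thinning CD8 cells were the largest class of the 362. With CD8 meaning a UMI of Cd8a or Cd8b1 and none of Cd4, 27 of the 40 vehicle cells were CD8 (67.5%, 50.9 to 81.4), against 47 of 93 at the low dose (50.5%, 40.0 to 61.1) and 95 of 229 at the high dose (41.5%, 35.0 to 48.2). CD4 cells, with Cd4 and neither Cd8 chain, were 4, 10 and 47 in number, or 10.0%, 10.8% and 20.5%. Cells with neither were 20.0%, 32.3% and 34.5%, and 1, 6 and 8 cells held both. After each cell was thinned to 500 UMIs the CD8 shares of the 362 were 45.0% (29.3 to 61.5), 26.9% and 24.9%, so vehicle stayed highest and its interval overlapped that of the high dose. The class with neither gene was then the largest, at 52.5%, 67.7% and 69.4%. Over all 456 the thinned CD8 shares were 28.1%, 18.8% and 22.4%. Of the 94 neutrophil-rich barcodes 89 had neither gene even without thinning.

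The background under these calls was low in B cell barcodes, and its source was not tested. Among 274 B cell barcodes of the same library, with a median of 3091 UMIs, 1.09% had a UMI of Cd4 and 1.46% one of Cd8a or Cd8b1. The sister library gave CD8 shares of 28.4%, 28.4% and 25.8% without thinning in its T cells with at most 2% neutrophil or hepatocyte UMIs. Its CD4 shares were 32.2%, 31.1% and 38.0% (35.1 to 41.0 at the high dose).

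**Figure D2:**
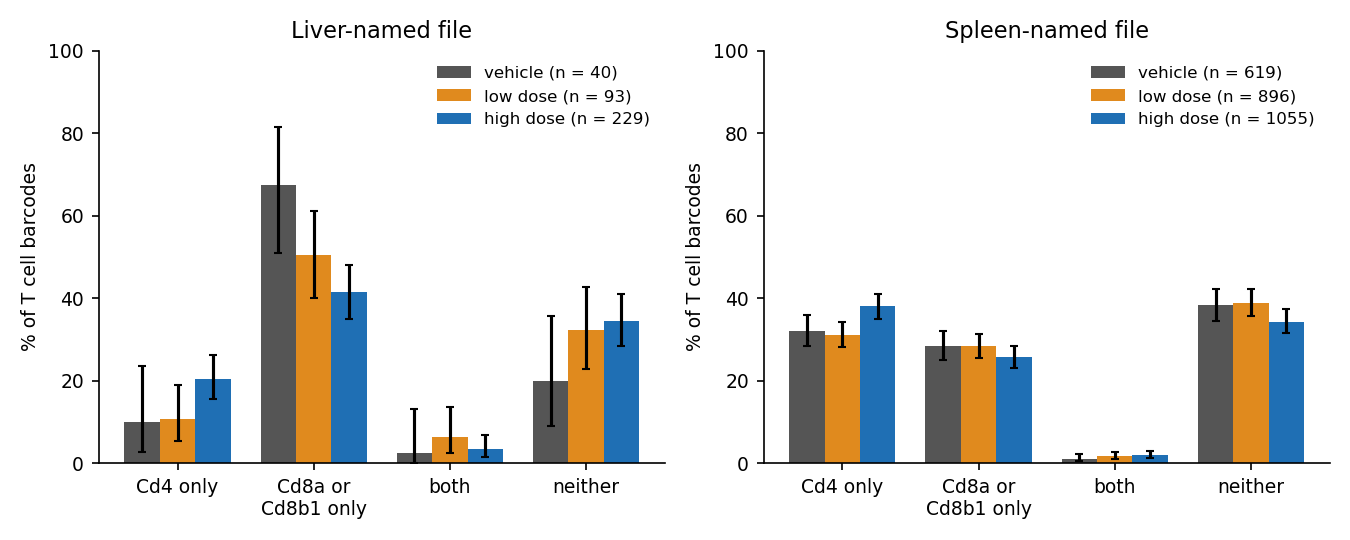
Percent of the 362 cells (left) and of the sister library's T cells chosen in the same way (right) that held Cd4, Cd8a or Cd8b1, both or neither, by group, with exact binomial 95% intervals. In the liver-named library CD8 cells go from 67.5% (vehicle) through 50.5% to 41.5% (high dose) and CD4 cells from 10.0% to 20.5%, while the sister library's CD8 bars stay between 25.8% and 28.4%.

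Across genes a difference is described as a rise or a fall where a dose and vehicle differed at least 2-fold after 10 CPM was added to each, among non-mitochondrial genes with at least 50 UMIs over the 3 groups. Over all 456 barcodes 6413 genes reached that count. At the high dose 360 rose (5.61%) and 84 fell (1.31%), with a median over all genes of 0.30 on the log2 scale. At the low dose 71 rose (1.11%) and 26 fell (0.405%), with a median of 0.04. The high-dose split depended on the scaling. With TMM factors, which centre the bulk of genes, 116 rose and 220 fell, and with the total taken without mitochondrial genes and the genes of other cell types 235 rose and 179 fell. The median was 0.40 over the 3516 genes at least as high in these barcodes as in the rest of the library and 0.18 over the other 2897. In the 362 cells 5398 genes were compared. There 277 rose (5.13%) and 67 fell (1.24%) at the high dose, 205 rose (3.8%) and 88 fell (1.63%) at the low dose, and the medians were 0.10 and 0.02. All levels that follow are CPM in the 362 cells unless stated otherwise, each ratio is the plain ratio of CPM on the log2 scale, and group values are in the order vehicle, low dose, high dose. A list sum takes in every gene of the list, while rises and falls are counted among its measured genes, those with at least 50 UMIs.

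None of the 14 genes of the T cell receptor and its first signals rose or fell at either dose. They summed to 5950, 5516 and 5615 CPM. The high-dose ratio of the sum was -0.08 (-0.17 to 0.00). Over all 456 barcodes the same sum was 2108, 2768 and 4228 CPM and 6 of 14 genes rose at the high dose, where the neutrophil list summed to 243757, 222730 and 100475 CPM. Trbc1, one of the alternative beta constant genes, was at 1260, 749 and 694 CPM (288, 403 and 996 UMIs), and Trbc2 at 1544, 1819 and 1638 CPM. Trbc1 had a high-dose ratio of -0.86 (-1.05 to -0.67), short of the limit for a fall.

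Genes of the cell cycle stood higher at both doses. Of 14 genes 7 rose at the high dose and 5 at the low dose, and none fell. Their sum was 3010, 5184 and 6306 CPM, a ratio of 0.78 (0.66 to 0.91) at the low and 1.07 (0.95 to 1.18) at the high dose. Over all 456 barcodes the sum was 5339, 5609 and 6080 CPM, where the neutrophil-rich barcodes also carried these genes. Mki67, a nuclear protein of dividing cells, had 10 UMIs in 4 vehicle cells, 119 in 12 low-dose cells and 485 in 46 high-dose cells. These were 43.8, 221 and 338 CPM, a high-dose ratio of 2.95 (2.06 to 4.02). Top2a, the topoisomerase of replicating DNA, was at 91.9, 273 and 376 CPM, and the mitotic kinase gene Cdk1 at 21.9, 110 and 121 CPM. Tubulin Tuba1b was at 171, 498 and 621 CPM and rose at both doses. Ccnb1, the cyclin of mitotic entry, had 0, 31 and 73 UMIs and was at least 4.39-fold higher at the low and at least 3.88-fold higher at the high dose, taking 3 UMIs per group as what a count of 0 allows.

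The difference lay in a minority of cells. Cells with over 1% of UMIs from the list were 2 of 40 (5.00%, 0.611 to 16.9), 8 of 93 (8.60%, 3.79 to 16.3) and 28 of 229 (12.2%, 8.28 to 17.2), and these intervals overlap. The median cell was at 0.132%, 0.163% and 0.145%. In the vehicle group 23.4% of the list's UMIs came from 1 cell. With the leading cell of each group left out the high-dose ratio was 1.35, and with each cell weighted equally it was 0.48. Of the 46 high-dose cells with Mki67, 23 were CD8 and 14 CD4, while the 4 vehicle cells were all CD8. Thinned to 500 UMIs a cell, Mki67 was seen in 0 of 40, 5 of 93 and 14 of 229 cells (6.11%, 3.38 to 10.0), and 0 of 40 allows a share of up to 8.81%. Among 274 B cell barcodes of the library 4 (1.46%) had Mki67 when thinned. Without thinning 28 of them (10.2%) did, against 10.0%, 12.9% and 20.1% of the T cells. How far free RNA made up these counts was not tested.

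**Figure D3:**
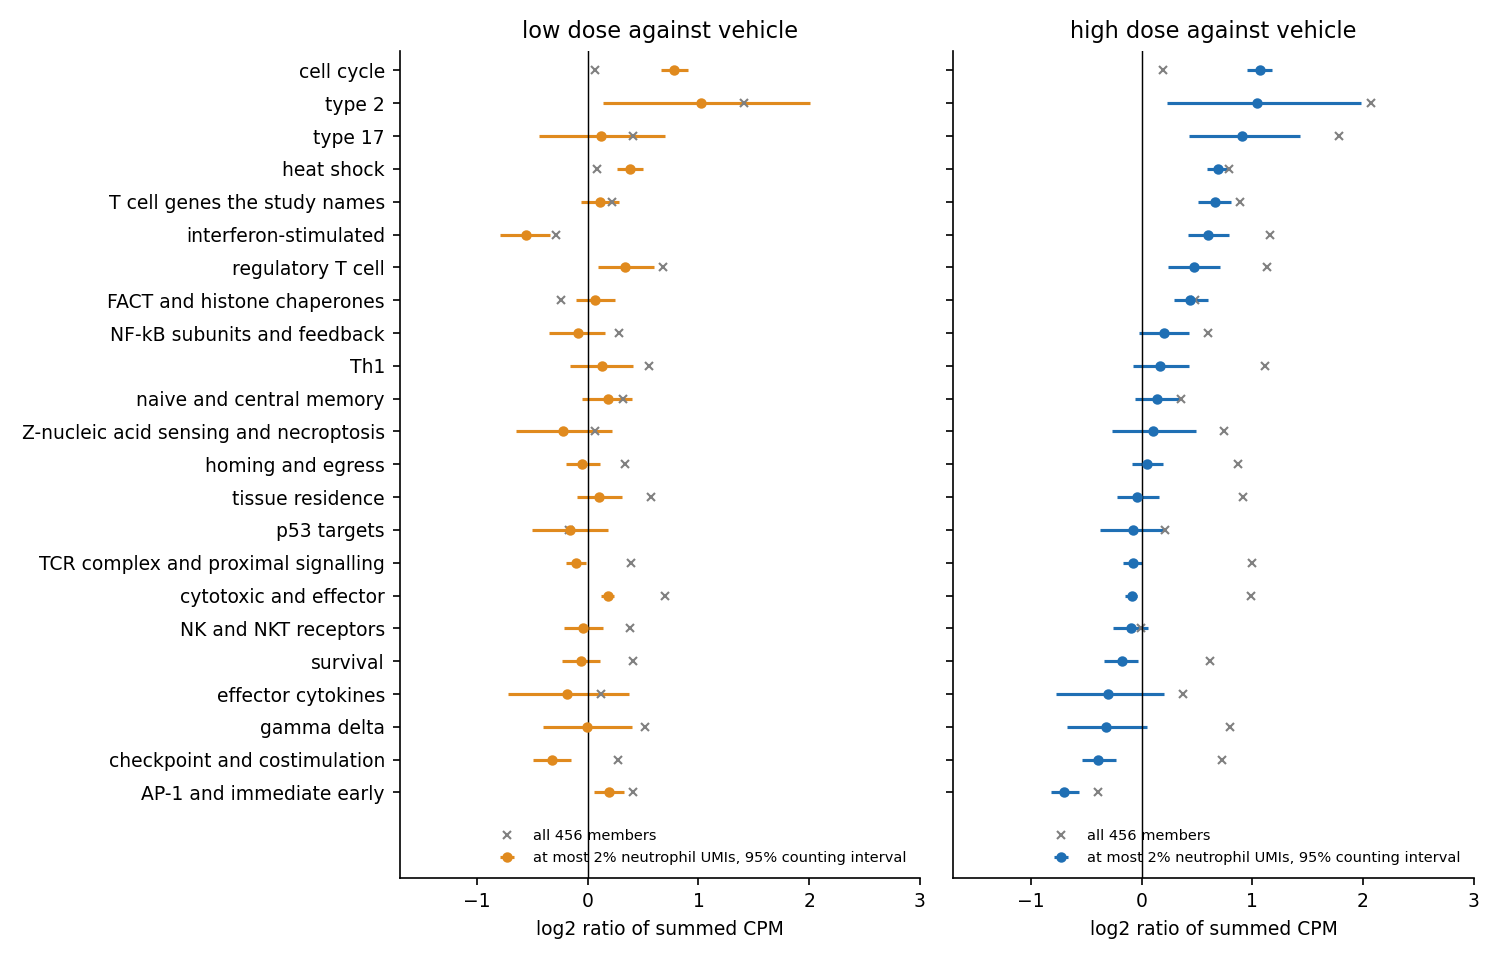
Log2 ratio of the summed level of each T cell gene list, low dose (left) and high dose (right) against vehicle, with circles for the 362 cells, lines for exact 95% counting intervals and crosses for all 456 barcodes. At the high dose the circles of the cell cycle (1.07), type 2 (1.04), type 17 (0.91), heat shock (0.69), study-named (0.66) and interferon-stimulated (0.60) lists lie highest. Those of the AP-1 and checkpoint lists lie below 0 (-0.70 and -0.39), where the checkpoint cross lies above 0 (0.73).

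None of the 13 measured genes of the cytotoxic list rose or fell at the high dose over the 362 cells. The 16 genes of the list summed to 14848, 16813 and 13926 CPM. At the low dose 2 of the measured genes rose and none fell. The sum is led by the chemokine Ccl5, at 7748, 8790 and 6499 CPM. The high-dose ratio of the sum was -0.09 (-0.15 to -0.04), and it was 0.28 with each cell weighted equally, so its direction depends on the weighting. Granzyme B (Gzmb) had 78, 271 and 971 UMIs, or 341, 504 and 677 CPM, a high-dose ratio of 0.99 (0.65 to 1.34) just short of the limit for a rise, and 1.26 without the leading cells. Over all 456 barcodes Gzmb was at 116, 254 and 508 CPM and did rise. Granzyme A (Gzma) was at 1527, 1542 and 2543 CPM. In the vehicle group 46.4% of Gzma came from 1 cell, and without the leading cells its high-dose ratio was 1.45 in place of 0.74.

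The 2 genes of the cytotoxic list that rose at the low dose were Ccl4, at 442, 1308 and 474 CPM, and Ccl3, at 179, 487 and 197 CPM. They encode inflammatory chemokines released by activated T cells. A single low-dose cell gave 43.8% of the Ccl4 UMIs, and without leading cells the low-dose ratio was 1.72. Xcl1, a chemokine that attracts dendritic cells, was at 136, 388 and 137 CPM, but 96.8% of its vehicle UMIs came from 1 cell. The effector cytokine genes were scarce. Interferon gamma (Ifng) had 12, 50 and 96 UMIs, or 52.5, 92.9 and 66.9 CPM, a high-dose ratio of 0.35 (-0.52 to 1.35). Of 12 cytokine genes 2 were measured and neither rose nor fell, and Il22 had no UMI. The 12 summed to 192, 169 and 156 CPM, with 38.6% of the vehicle UMIs from 1 cell. The high-dose ratio of the sum was -0.30 and turned to 0.30 without leading cells and 0.24 with each cell weighted equally.

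The receptor genes Pdcd1 and Lag3 stood lower at both doses over the 362 cells, of which CD8 cells were a smaller share, and nearer to vehicle within CD8 cells. The 14 checkpoint and costimulation genes, 13 of them measured, summed to 1890, 1514 and 1445 CPM, a high-dose ratio of -0.39 (-0.54 to -0.23). At the high dose Tnfrsf4 rose and Lag3 fell, and at the low dose Lag3 fell. The other inhibitory receptor genes did not share one direction, with Ctla4 at 140, 143 and 104 CPM, Havcr2 at 48.1, 57.6 and 48.1 CPM and Cd160 at 114, 132 and 158 CPM. Lag3 was at 206, 87.3 and 84.4 CPM (47, 47 and 121 UMIs). Pdcd1, the gene of PD-1, had 70, 122 and 217 UMIs, or 306, 227 and 151 CPM. Its high-dose ratio was -1.02 (-1.41 to -0.61), and with 10 CPM added it was -0.97, just short of the limit for a fall. Over CD8 cells alone Pdcd1 was at 321, 328 and 304.6 CPM, a high-dose ratio of -0.07 (-0.52 to 0.39). Lag3 in CD8 cells was at 202, 141 and 184 CPM (high dose -0.13, -0.70 to 0.47). The costimulatory receptor gene Tnfrsf4, encoding OX40, was at 48.1, 102 and 142 CPM, a high-dose ratio of 1.56 (0.69 to 2.59).

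Within CD8 cells, compared over 27, 47 and 95 cells, Gzma, Gzmb, Mki67 and Ccnd2 rose at the high dose. Gzma was at 2055, 2453 and 4597 CPM, a high-dose ratio of 1.16 (1.00 to 1.33), and 46.8% of the vehicle UMIs came from 1 cell. Gzmb was at 445, 777 and 1024 CPM (1.20, 0.85 to 1.57) and had a UMI in 18, 38 and 76 cells. These shares of cells were not thinned. Granzyme K (Gzmk) was at 148, 289 and 220 CPM. Perforin (Prf1) was at 416, 472 and 416 CPM, and Nkg7, a granule protein, at 2126, 2428 and 2667 CPM. Mki67 was at 59.4, 154 and 355 CPM, a high-dose ratio of 2.58 (1.67 to 3.66). The cytokine signalling inhibitor Cish was at 53.5, 70.7 and 195 CPM, a ratio of 1.86 (0.89 to 3.03), and the cyclin Ccnd2 at 143, 292 and 350 CPM (1.30, 0.68 to 1.97). Ccl4 was at 303, 2164 and 768 CPM in CD8 cells and rose at both doses. The transcription factor gene Tox, linked to lasting antigen contact, was at 255, 257 and 298 CPM, and the residence receptor Cxcr6 at 469, 472 and 584 CPM. Neither rose or fell.

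**Figure D4:**
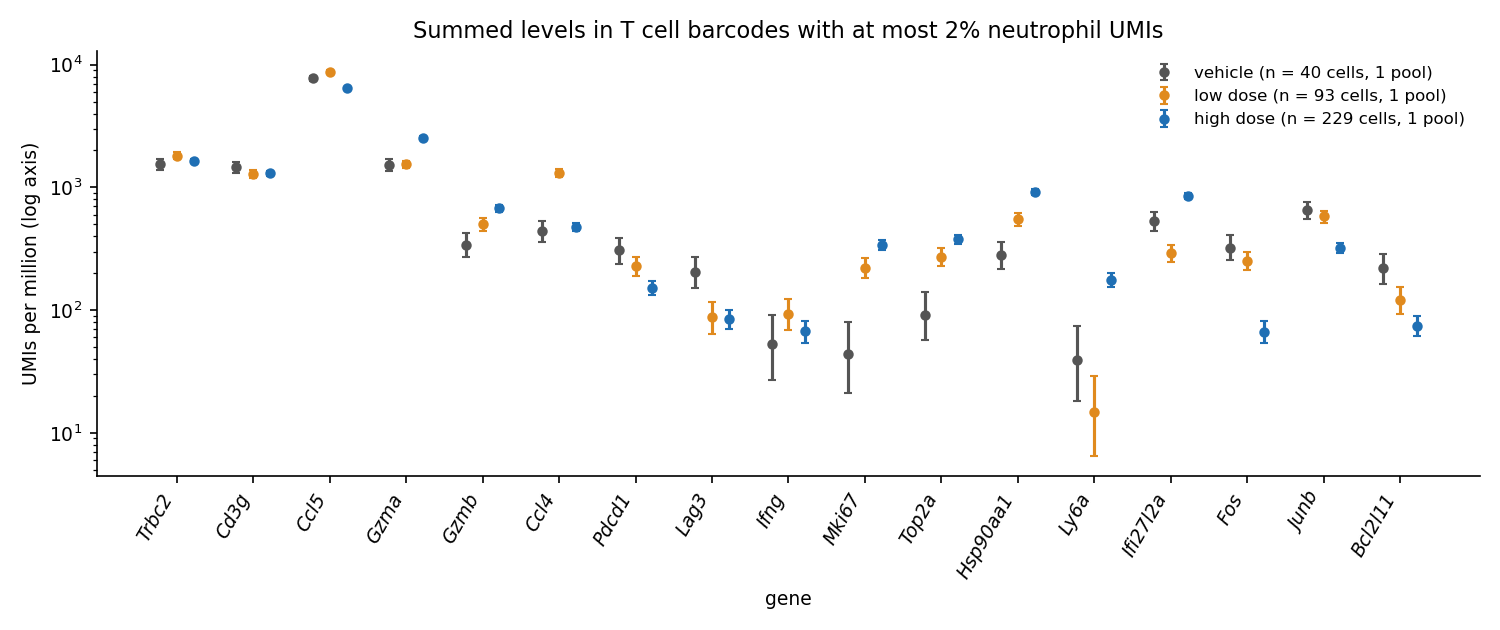
Level in CPM (log axis) of chosen genes in the 362 cells, by group, with exact Poisson 95% intervals. Mki67, Gzmb and Hsp90aa1 stand higher from vehicle to low to high dose, Pdcd1, Fos, Junb and Bcl2l11 lower, Ccl4 stands highest at the low dose, and Trbc2 and Cd3g are nearly level.

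Fos was the only one of 12 AP-1 and immediate early genes to fall at the high dose. The 12 genes of the AP-1 list summed to 2879, 3292 and 1773 CPM, a high-dose ratio of -0.70 (-0.82 to -0.57) and a low-dose ratio of 0.19 (0.06 to 0.33). A single vehicle cell gave 19.8% of the list, and the high-dose ratio was -0.50 without leading cells and -0.48 with each cell weighted equally. None rose at the high dose, and at the low dose 3 rose and none fell. Fos, an AP-1 subunit, had 74, 135 and 95 UMIs, or 324, 251 and 66.2 CPM, a high-dose ratio of -2.29 (-2.74 to -1.83). In the vehicle group 40.5% of its UMIs came from 1 cell. Jund was at 748, 719 and 419 CPM and Ier2, which was not lower, at 105, 206 and 126 CPM. Junb was at 652, 580 and 323 CPM (-1.01 on the plain scale), and in CD8 cells at 624, 369 and 168 CPM, where it fell. Fos in CD8 cells was at 386, 135 and 40.6 CPM, with a UMI in 5, 4 and 7 cells, and 1 cell gave 46.2% of the UMIs in vehicle, 64.3% at the low and 66.7% at the high dose. The 3 genes that rose at the low dose were Fosb, Egr1 and Nr4a1. Fosb was at 39.4, 112 and 32.1 CPM.

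The NF-kB list of subunits and feedback genes held a single gene past the limit. Its 10 genes summed to 818, 767 and 938 CPM, with a high-dose ratio of 0.20 (-0.02 to 0.43). At the high dose 1 gene fell and none rose, and at the low dose none did either. The gene that fell was Tnfaip3, the feedback enzyme A20, at 149, 104 and 65.5 CPM. Nfkbia, the inhibitor IkB-alpha, was at 175, 199 and 286 CPM. The 9 survival genes summed to 1759, 1683 and 1550 CPM, and 1 of 8 measured fell at the high dose. This was Bcl2l11, encoding the death-promoting protein Bim, at 219, 121 and 74.6 CPM, a high-dose ratio of -1.55. In CD8 cells Bcl2l11 was at 220, 157 and 71.1 CPM and fell too.

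Interferon-stimulated genes as a sum stood below vehicle at the low dose and above it at the high dose. The 16 genes, 12 of them measured, summed to 1159, 784 and 1763 CPM, a low-dose ratio of -0.56 (-0.79 to -0.34) and a high-dose ratio of 0.60 (0.42 to 0.79). The signs were the same under each of the other scalings tried. At the high dose 2 genes rose, and at the low dose 1 fell. Ly6a, the surface protein Sca-1, had 9, 8 and 253 UMIs, or 39.4, 14.9 and 176 CPM (high dose 2.16, 1.22 to 3.31), with a UMI in 3, 6 and 47 cells. These were 7.50%, 6.45% and 20.5% of cells, against 13.1% of the B cell barcodes (36 of 274). How far free RNA made up these counts was not tested. Bst2, encoding tetherin, was at 35.0, 76.2 and 97.6 CPM and rose at the high dose. Ifi27l2a led the sum at 529, 290 and 852 CPM, with ratios of -0.87 and 0.69. Rtp4 fell at the low dose, from 43.8 to 5.57 CPM. Isg15 was at 39.4, 39.0 and 39.0 CPM, level across the groups although it is the best known of the list. In CD8 cells Ly6a was at 53.5, 9.63 and 72.8 CPM, a high-dose ratio of 0.45 (-0.61 to 1.67).

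Of the genes tied to how curaxins act, the FACT subunit Ssrp1 rose and its partner was level. Ssrp1 had 17, 76 and 282 UMIs, or 74.4, 141 and 197 CPM, a high-dose ratio of 1.40 (0.70 to 2.20). The other subunit, Supt16, was at 136, 125 and 140 CPM (0.05, -0.50 to 0.64). The histone chaperone Asf1b, which is made in dividing cells, also rose, at 21.9, 29.7 and 71.8 CPM. The 7 chaperone genes summed to 1623, 1702 and 2208 CPM, a ratio of 0.44 (0.29 to 0.60), with 2 rises and no fall at the high dose and neither at the low dose. The 12 p53 targets, 6 of them measured, summed to 477, 425 and 450 CPM. None rose or fell at the high dose, and at the low dose Cdkn1a, the cell cycle inhibitor p21, fell from 43.8 to 16.7 CPM (10 and 9 UMIs). The 7 genes of Z-nucleic acid sensing and necroptosis summed to 297, 254 and 319 CPM with no rise or fall among 5 measured, and Zbp1 was at 101, 52.0 and 76.7 CPM.

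Heat shock genes stood higher at the high dose. Of 7 measured genes 3 rose and none fell, and at the low dose none did either. The sum over all 9 listed was 3465, 4509 and 5603 CPM, with ratios of 0.38 (0.26 to 0.50) and 0.69 (0.59 to 0.80). The chaperone Hsp90aa1 had 64, 295 and 1316 UMIs, or 280, 548 and 917 CPM, a high-dose ratio of 1.71 (1.35 to 2.10). Hspd1, the mitochondrial chaperonin, was at 123, 171 and 285 CPM and Hsph1 at 30.6, 44.6 and 85.8 CPM. In CD8 cells Hsp90aa1 was at 267, 572 and 575 CPM and rose at both doses.

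Of 8 measured regulatory T cell genes 2 rose at the high dose, Il2ra and Tnfrsf4, and none fell, and at the low dose none did either. The sum over the 10 listed was 757, 957 and 1050 CPM. Its ratios were 0.34 and 0.47, and -0.12 and 0.68 with each cell weighted equally. Foxp3, the defining factor of regulatory T cells, had 6, 6 and 53 UMIs in 1, 2 and 20 cells. Of the 20 high-dose cells 6 were CD4 and 12 had neither Cd4 nor Cd8, and all 20 had a UMI of Trac, Trbc1 or Trbc2. The 9 type 17 genes summed to 166, 180 and 312 CPM, and of 3 measured the transcription factor Maf rose at the high dose (83.1, 79.9 and 226 CPM). Il17f and Il23r had no UMI. The 10 Th1 genes, 8 of them measured, summed to 630, 688 and 710 CPM with no rise or fall. Of 7 type 2 genes only the transcription factor Gata3 was measured, at 48.1, 65.0 and 85.8 CPM, and it did not reach the limit. The 7 together summed to 56.9, 115 and 117 CPM on 13, 62 and 168 UMIs. The ratios of this sum were 1.02 (0.14 to 2.01) and 1.04 (0.23 to 1.98), and 0.54 and 1.06 with each cell weighted equally.

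In each of the innate-like lists the gene past the limit rested on few cells. The 9 gamma delta genes summed to 341, 340 and 273 CPM, and of 5 measured Trdc passed the limit upward at both doses on 1, 11 and 40 UMIs in 1, 4 and 11 cells. The ratios of the sum, -0.01 and -0.32, turned to 0.66 and 0.18 with each cell weighted equally. The 12 natural killer receptor genes summed to 1676, 1631 and 1561 CPM, and of 8 measured Ncr1 passed the limit upward at both doses. Here the ratios of the sum, -0.04 and -0.10, turned to 0.19 and 0.15 with each cell weighted equally. Ncr1, the receptor NKp46, had 0, 9 and 138 UMIs in 0, 2 and 15 cells and was at least 1.27-fold higher at the low and at least 7.33-fold higher at the high dose. Of the 15 high-dose cells 13 had neither Cd4 nor Cd8, 7 had at least 5 Cd3 UMIs, and all 15 had a UMI of Trac, Trbc1 or Trbc2. The natural killer genes Klra8 and Klra4 had no UMI. Whether some of these cells were natural killer cells was not tested.

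Homing genes changed singly, not together. The 14 genes summed to 2174, 2107 and 2252 CPM, with 3 rises and 1 fall at the high dose and 2 rises and 1 fall at the low dose. Integrin genes Itgb1 (109, 132 and 239 CPM) and Itgb7 (78.8, 121 and 201 CPM) and the adhesion gene Icam2 rose at the high dose, and Icam2 and the chemokine receptor Cxcr4 at the low dose. Ccr7, the lymph node homing receptor, fell at both doses, at 101, 42.7 and 33.5 CPM. Ccr7 was also the only one of 9 measured naive and central memory genes past the limit, and the 10 of that list summed to 980, 1107 and 1083 CPM. The 10 tissue residence genes summed to 1168, 1256 and 1140 CPM, and of 8 measured the signalling regulator Rgs2 fell at the high dose.

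Among 14 T cell genes that the study names, 3 rose and none fell at the high dose, and 2 rose and none fell at the low dose. The list was picked on these libraries, so its direction is not independent evidence. The sum was 1842, 1986 and 2906 CPM, a high-dose ratio of 0.66 (0.51 to 0.81). Gadd45b, a stress-induced gene, had 1, 15 and 95 UMIs, or 4.38, 27.9 and 66.2 CPM, with a high-dose ratio of 3.92 (1.41 to 9.24) that rests on 1 vehicle UMI. Icam2 likewise had 1, 12 and 38 UMIs. Dok2, an adaptor that dampens receptor signals, was at 105, 206 and 215 CPM and Lcp1, an actin-bundling protein, at 416, 544 and 693 CPM. Neither reached the limit.

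Differences over all 456 barcodes were ranked by size, first among genes at least as high in these barcodes as elsewhere in the library. The largest of these were in part those of single cells. Gzmf, a granzyme, had 0, 0 and 211 UMIs, all from 1 high-dose CD8 cell. Olfm4, at 17.9, 190 and 202 CPM, rose at both doses and had no UMI in the 362 cells. Among the other 8 largest high-dose rises were Ncr1, Gzmb, Tnfrsf4, Itgb7, Cish, Ccnd2 and Trat1, which encodes an adaptor that holds the T cell receptor at the surface. Trat1 had 1, 13 and 95 UMIs in 1, 9 and 42 of the 362 cells. The last was Gm47283, at 85.1, 132 and 421 CPM over all barcodes and 162, 232 and 557 CPM in the 362.

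Among genes at least as high in these barcodes as elsewhere, the 10 largest high-dose falls over all 456 included Camp, Ngp and Cebpe. Camp and Ngp are proteins of neutrophil granules and Cebpe is a transcription factor of neutrophil precursors. Camp was at 9033, 7484 and 2551 CPM, Ngp at 15181, 12975 and 5807 CPM and Cebpe at 194, 124 and 71.6 CPM. Gca, Ltb4r1, Inhba and Ceacam10 were in the same list of 10. In the 362 cells the vehicle group held 3 UMIs of Camp, 6 of Ngp and 0 of Cebpe. Ccl1, a chemokine, had 97, 1 and 4 UMIs in the 362 cells, of which 58.8% of the vehicle UMIs came from 1 cell and the rest from 1 other. In Lgals7 88.6% of the vehicle UMIs came from 1 cell. Nrgn, a calmodulin-binding protein, had UMIs in 13, 17 and 27 cells and was at 302, 104 and 46.0 CPM, a high-dose ratio of -2.71 (-3.22 to -2.21). In Nrgn 42.0% of the vehicle UMIs came from 1 cell, and without the leading cells the levels were 175, 85.5 and 40.4 CPM, a high-dose ratio of -2.11. Among the same genes the 5 largest low-dose rises over all 456 barcodes were Olfm4, Ccl4, Xcl1, Ccl3 and Gm2682. The 5 largest low-dose falls were Ccl1, Lgals7, Igflr1, Cstdc5 and Mad2l1bp.

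Genes lower in T cells than in the rest of the library also differed. The globin genes Hbb-bs, Hbb-bt, Hba-a1 and Hba-a2 rose at the high dose, but 1 cell gave 95.9% of the Hbb-bs UMIs there. Cxcl3 had 0, 3 and 101 UMIs over all barcodes. Among these genes Elane (1220, 280 and 31.4 CPM) and Mpo (575, 67.0 and 31.9 CPM), of azurophil granules, with Ctsg, Prtn3 and Orm1, fell most over all 456 barcodes. In the 362 cells Elane had 1, 1 and 7 UMIs and Mpo 1, 1 and 28, and Prtn3, with 7, 6 and 122 UMIs, was not lower at the high dose.

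RNA of other cell types was present in the 362 cells. The neutrophil list summed to 1527, 821 and 838 CPM, led by S100a9. The monocyte list summed to 3246, 1165 and 625 CPM, led by Lyz2, of which 1 vehicle cell gave 85.4%. Without the leading cells the monocyte sums were 745, 847 and 484 CPM. The B cell list summed to 144, 1420 and 302 CPM and was almost wholly Cd74, with Iglc2 and Pax5 at 0, and the dendritic list, led by H2-Aa, to 70.0, 756 and 203 CPM. The hepatocyte list was at 306, 74.3 and 108 CPM (62.9% of the vehicle UMIs from 1 cell) and the liver endothelial list at 87.5, 188 and 252 CPM. Without the leading cells the liver endothelial sums were 57.6, 58.4 and 204 CPM, the B cell sums 81.7, 748 and 183 CPM and the dendritic sums 52.8, 481 and 153 CPM. The Kupffer list was at 8.75, 11.2 and 23.7 CPM and the 4T1 or epithelial list at 26.2, 7.43 and 18.1 CPM, with Krt19 and Cldn4 at 0. The erythroid list was at 30.6, 6982 and 1334 CPM, of which 1 cell gave 99.4% at the low and 97.0% at the high dose. The platelet list was at 30.6, 11.1 and 25.8 CPM and the natural killer list, led by Tyrobp, at 871, 769 and 820 CPM. Their part in the differences above was not tested.

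At the high dose the CD4, CD8 and neither classes were large enough to describe (47, 95 and 79 cells). The neither class is set by counts of 0 at this depth, grows with thinning, and can hold CD4 and CD8 cells in which the genes were not caught. Gzma was at 4.93 CPM in CD4, 4597 in CD8 and 2756 in the neither class, and Prf1 at 2.46, 416 and 157 CPM. Tox was at 17.2, 298 and 68.2 CPM and Lag3 at 7.39, 184 and 14.8 CPM. These killing and checkpoint genes thus stood highest in CD8 cells. Higher in CD4 than in CD8 cells were the costimulatory receptor Icos (298 against 45.7 CPM), Tnfrsf4 (222 against 44.0 CPM), Trat1 (128 against 1.69 CPM) and the adhesion gene Itgb1 (419 against 135 CPM). Ly6a was at 246 CPM in CD4, 72.8 in CD8 and 207 in the neither class. The replication factor gene Pcna was at 417 CPM in CD4 and 149 in CD8 cells. Genes highest in the neither class were Ncr1 (350 CPM, against 0 in CD4 and 33.8 in CD8 cells), Xcl1 (492 CPM) and the receptor adaptor Tyrobp (770 CPM). Vehicle held 4 CD4 cells and 8 with neither, too few to compare.

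The liver-file CD8 cells already differed from those of the sister library in the vehicle group. There 27 cells stood against 176 from the sister library chosen in the same way. Pdcd1 was at 321 against 3.73 CPM, a ratio of 6.43 (4.99 to 8.35), and Cxcr6 at 469 against 43.8 CPM. The costimulatory receptor gene Tnfrsf9, encoding 4-1BB, was at 297 against 0.932 CPM, the residence gene Rgs1 at 374 against 7.45 CPM, and Ccl5 at 10096 against 921 CPM. Gzma was at 2055 against 102 CPM and Gzmb at 445 against 59.6 CPM. Genes of circulating and naive cells went the other way. Tcf7 was at 23.8 against 346 CPM, the egress receptor S1pr1 at 11.9 against 232 CPM, and Lef1 at 71.3 against 455 CPM. Genes tied to residence or homing did not all stand higher in the liver file. Rgs2 did, with a ratio of 2.67 (1.58 to 3.77). Cd69 had a ratio of -0.27 (-1.12 to 0.49) and Cxcr3 one of -1.33 (-4.43 to 0.64). Itgae had 0 UMIs against 9, too few to place, and Zfp683 had no UMI in either library's cells. RNA of other cell types also differed, with the myeloid gene Lyz2 at 3082 against 117 CPM, Apoe at 624 against 14.0 CPM and Tyrobp at 523 against 68.0 CPM. A single liver-file cell gave 85.7% of Lyz2, 87.6% of Apoe and 52.3% of Tyrobp. Each library was 1 run, so tissue, digestion and droplet run cannot be told apart.

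**Figure D5:**
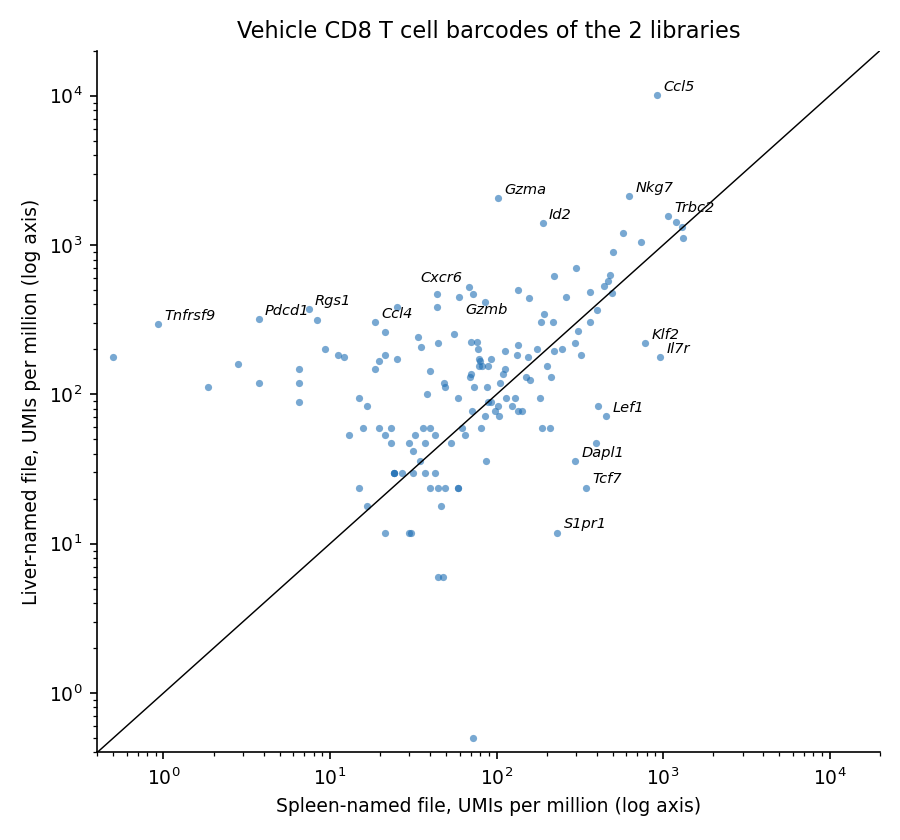
Level in CPM (log axes) of the T cell list genes with at least 20 UMIs in vehicle CD8 cells of the liver-named library (27 cells) against those of the sister library (176 cells), with chosen genes labelled, the line of equal levels and values of 0 drawn near the foot of the axes. Pdcd1, Tnfrsf9, Rgs1, Ccl5, Cxcr6 and the granzymes lie on the liver side and Tcf7, S1pr1 and Lef1 on the other.

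Set side by side, the libraries shared some dose patterns and not others. In the sister library's T cells with at most 2% neutrophil or hepatocyte UMIs, Mki67 was at 52.1, 42.1 and 106 CPM, so its low-dose level was not above vehicle. Gzma was at 34.5, 55.9 and 211 CPM and Fos at 46.0, 17.6 and 17.1 CPM, in the same order of vehicle and high dose as in the liver file. Hsp90aa1 was at 291, 348 and 410 CPM there, against 280, 548 and 917 CPM in the liver file. Pdcd1 stayed low at 7.88, 7.01 and 7.99 CPM. Whether the doses acted differently in the libraries was not tested.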

How the data were processed

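The authors aligned the reads to mm10 and counted UMIs per gene and cell barcode with Cell Ranger (6.0.0 in the submitters' processing notes, 5.0.0 in the matrix header, a later release in the study's methods), and Seurat is named for their later steps. The deposited matrices hold unnormalised counts of 32285 genes and 3 hashtags for 2 libraries. No column was of a sample outside the series (0).

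Here counts were summed over the cells of a group and divided by their gene UMIs (CPM). Levels were given exact Poisson intervals, ratios exact conditional binomial intervals and shares Clopper-Pearson intervals, all at 95%, and a count of 0 was taken to allow 3. Cells were not tested as replicates. Genes were named by a rule: members of 23 lists of T cell genes and 11 of other cell types, the 10 largest rises and falls at the high dose and 5 at the low dose among genes at least as high in T cells as elsewhere, and 5 of each among the rest. The cells and lists were chosen with earlier results of these data known. Scripts were tested on simulated data. Python 3.11.15, numpy 2.4.6, scipy 1.17.1, pandas 2.3.3, matplotlib 3.10.9 and edgeR 4.0.16 (TMM factors only) were used. Alternatives were other hashtag, Cd3, gene count and UMI limits, pseudocounts, totals and thinning depths, and leaving out neutrophil-rich barcodes or leading cells. Clustering of cells was not used. Some genes are not reported here.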

Additional observations from a re-analysis of the deposited data

Results flagged for a closer look

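For 14 genes the high-dose ratio to vehicle (log2, cells with at most 2% neutrophil or hepatocyte UMIs) had its whole counting interval on one side of 0 in the liver-file T cells and on the other side in those of the sister library. With 1 pool per group and library, the difference between the libraries was not tested for any of them. No share over all genes was set beside the count of 14, so it does not show whether such genes were many or few. Among cytotoxic genes Ccl5 was at -0.25 in the liver file and 0.29 in the sister library, Nkg7 at -0.34 and 0.16, Klrd1 at -0.52 and 0.43, and Id2 at -0.24 and 0.23. These liver-file values are over all 362 cells, whose CD8 share went from 67.5% to 41.5%. Within liver-file CD8 cells they were 0.31 for Ccl5, 0.33 for Nkg7, 0.27 for Klrd1 and 0.14 for Id2. The sister library's values are over all its T cells of this kind and not its CD8 cells alone, so the 2 sets are unlike. The part of the CD8 share in the signs was not tested. Over the 362 cells without leading cells Ccl5 was at 0.01, Nkg7 at -0.24, Klrd1 at -0.28 and Id2 at -0.16. Of receptor and adhesion genes Tnfrsf9 was at -0.80 and 1.46, Trbc1 at -0.86 and 0.25, Itga4 at -0.52 and 0.30, and Selplg at -0.37 and 0.13. Nrgn was at -2.71 and 1.22, on 12 and 53 UMIs in the sister library. The chaperone gene Hspa8 was at 0.43 and -0.11. Genes of other cell types were Cd74, at 1.29 and -3.54, H2-Aa, at 1.86 and -3.75, Il1b, at 1.62 and -1.33, and Prtn3, at 1.47 and -1.30, where the liver-file vehicle cells held 24, 6, 7 and 7 UMIs. Without leading cells their liver-file ratios were 1.96, 2.44, 1.44 and 2.44. Il1b was then at 4.38, 27.9 and 11.9 CPM in the liver file and Prtn3 at 4.38, 9.29 and 23.7 CPM.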

How the results depend on the processing

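Over all 456 barcodes, 57 named genes were recomputed under 13 settings, 1 of which takes the low dose in place of the high. Values here are log2 ratios to vehicle with a pseudocount added, 10 CPM unless it is the setting changed, and not the plain ratios used above. Of 741 values 428 stayed within the counting interval of the reported value, 12 turned a rise or a fall to the other sign and the rest lay outside the interval. Without the neutrophil-rich barcodes Cebpe was at 0.10 (0.23 in CD8 cells only), and with the leading cells also left out Camp was at 0.02 and Ngp at 0.14. In CD8 cells only Il7r was at -1.18 and Ngp at 0.12, and with each cell weighted equally Tbx21 was at -0.08. The low dose in place of the high gave Ceacam10 0.18, Fos 0.35 and Ifi27l2a -0.33, and the sister library gave Lgals7 0.35 and Nrgn 0.45. Requiring 200 genes a barcode and mitochondrial UMIs below 10% put the T cell share 9.01 percentage points above vehicle at the high dose. In a separate setting, without thinning and without the neutrophil-rich barcodes, the CD8 share at the high dose differed from vehicle by -26 points. The causes were not tested.

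Counts of rises and falls moved most. A pseudocount of 1 CPM gave 879 and 154 at the high and 293 and 116 at the low dose, and 50 CPM gave 48 and 34, and 17 and 9. At least 3 Cd3 UMIs gave 136 high-dose falls and 126 rises and 50 falls at the low dose. Equal weight per cell gave 159 high-dose falls, and 156 rises and 85 falls at the low dose. TMM gave 116 and 220 at the high dose, and the total without other cell types 235 and 179 with 44 low-dose falls. Without the neutrophil-rich barcodes the low dose had 205 rises and 88 falls. Over all 456 barcodes it had 13 falls among genes of at least 100 UMIs and 43 with no UMI filter, in place of 26.

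The vehicle group, with 40 cells of at most 2% neutrophil UMIs, limits every ratio, and genes under about 10 vehicle UMIs are set by a few cells. No paired analysis was possible because each group was 1 pooled sample.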
